A study of Mus musculus with 9 samples.

Results

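The 8 genes Ephx1, Sgk2, Pnma2, Fbxo2, Ppp1r14a, Cmbl, Vopp1 and Rprml were picked from 21944 protein-coding genes because their values in N134-RHAMMB subcutaneous tumours did not overlap those in N134 subcutaneous tumours. 6 were higher and 2, Vopp1 and Rprml, were lower in the N134-RHAMMB tumours. The RNA-seq data cover 3 groups with 3 samples each. These are liver metastases of N134-RHAMMB cells (metastases 1, 2 and 3), subcutaneous tumours of N134-RHAMMB cells (N134-RHAMMB tumours 1, 2 and 4) and subcutaneous tumours of N134 cells (N134 tumours 1, 2 and 3). N134 is a mouse pancreatic neuroendocrine tumour line, and RHAMMB is one form of RHAMM, the hyaluronan receptor that Hmmr encodes. All cells grew in NSG mice (NOD.Cg-PrkdcscidIl2rgtm1Wjl/SzJ), which lack mature lymphocytes but keep myeloid cells, after injection under the skin or by tail vein. Tissue site and route cannot be told apart. How the RHAMMB line was made, whether it is 1 clone, the age and sex of the mice, and whether samples came from separate animals are not stated in the labels. The p-values therefore reflect sample-to-sample spread alone, part of which may be technical. Values of single libraries are given in the order of these numbers.

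The genes have unlike jobs. Ephx1 encodes microsomal epoxide hydrolase, which opens reactive epoxides to diols in the endoplasmic reticulum, and Cmbl encodes a cytosolic hydrolase that in humans cleaves ester prodrugs; both are best known from the liver. Sgk2 encodes a serum- and glucocorticoid-regulated kinase, a relative of AKT that acts on ion channels. Pnma2 encodes a paraneoplastic antigen derived from a retrotransposon, and Fbxo2 a subunit of a ubiquitin ligase that recognises N-glycans on misfolded proteins; both are known from neurons. Ppp1r14a encodes CPI-17, an inhibitor of myosin phosphatase in smooth muscle. Vopp1 encodes a vesicle protein that in humans is overexpressed in cancers and binds the tumour suppressor WWOX. Rprml encodes reprimo-like, a relative of reprimo, which p53 induces to stop cells before mitosis.

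Values are FPKM, a fragment count scaled to transcript length and to library size, and differences are on the log2(FPKM + 1) scale, which understates changes of low genes. The libraries held an estimated 14.7 to 18.4 M (mega) fragments, so a lone fragment on a 2 kb transcript equals 0.0272 to 0.0339 FPKM. The lowest value of the 8 genes in any library was 1.79 FPKM (Vopp1), so all 8 lay above the filter of 1 FPKM in all 9 libraries. All 15 neuroendocrine markers, among them the granin Chga and the carboxypeptidase Cpe, reached 1 FPKM in every library. Their sums were 3279 to 4485 FPKM in metastases, 3960 to 4809 FPKM in N134-RHAMMB tumours and 3658 to 4338 FPKM in N134 tumours. All 17 hepatocyte markers reached 1 FPKM in every metastasis, with sums of 4409 to 4607 FPKM, against 304 to 413 FPKM in N134-RHAMMB tumours and 349 to 440 FPKM in N134 tumours. Most of the subcutaneous sum was Ttr, transthyretin, which islet cells also make. Alb, albumin, stood at 1504, 1410 and 1609 FPKM in metastases 1, 2 and 3, at 0.481 to 0.720 FPKM in N134-RHAMMB tumours, and at 1.14 to 1.60 FPKM in N134 tumours. The metastasis libraries thus held liver RNA as well as tumour RNA. In such bulk samples, fewer cells of a type and less RNA per cell cannot be told apart. Skeletal muscle markers summed to 175 FPKM in N134-RHAMMB tumour 2 and 218 FPKM in tumour 4, against 17.8 FPKM in N134-RHAMMB tumour 1 and 22.5 FPKM or less in each other library.

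**Figure D1:**
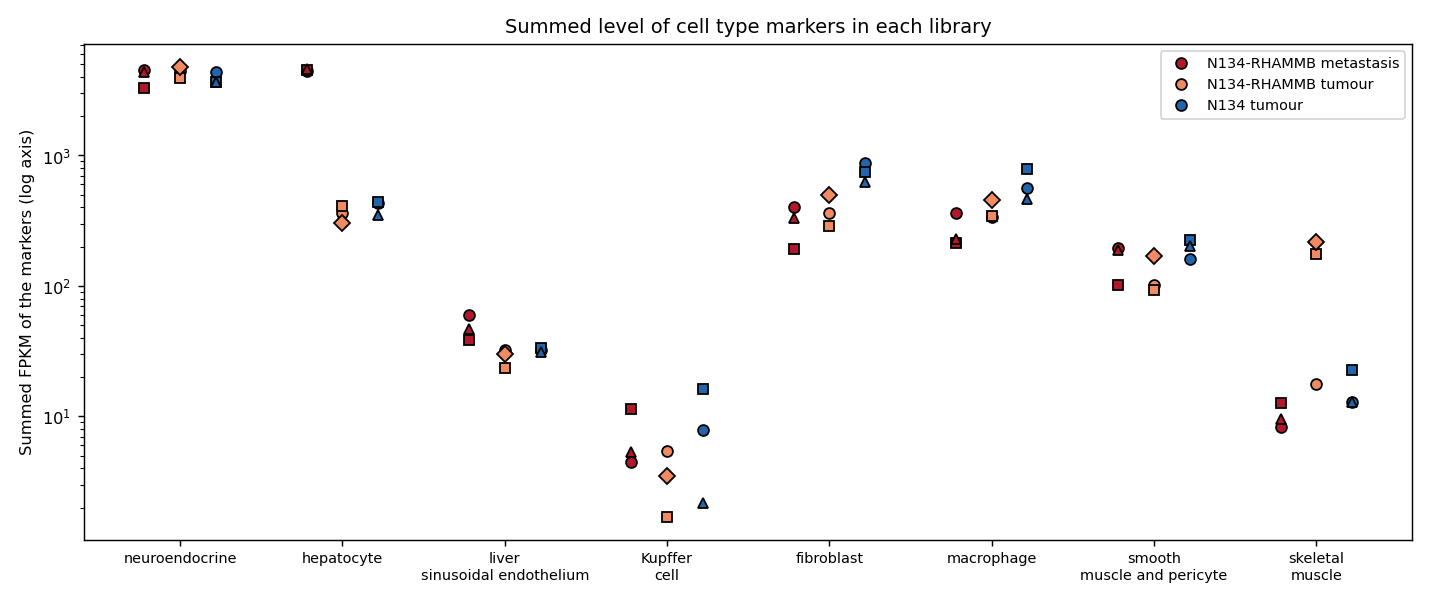
Summed FPKM (log axis) of cell type marker lists in each library, grouped by metastasis, N134-RHAMMB tumour and N134 tumour (circle, square, triangle and diamond: libraries 1, 2, 3 and 4). Hepatocyte markers lie at 4409 to 4607 FPKM in metastases and at 440 FPKM or less in all subcutaneous tumours.

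Promoter sequences show what letters lie at the starts of genes that were higher or lower in N134-RHAMMB tumours. The motif counts pool both directions. RefSeq (GRCm38.p6) gave a window of 250 bases before to 50 after the start for 6 of the 8 genes, Ephx1, Fbxo2, Ppp1r14a, Cmbl, Vopp1 and Rprml. The 3 shown are the hydrolase with the largest rise and the pair of genes that were lower. The windows are chr1:181017520-181017819 on the minus strand for Ephx1, chr6:57825076-57825375 on the minus strand for Vopp1 and chr11:103649259-103649558 on the plus strand for Rprml, 5′ to 3′, with matches of 8 searched motifs in capitals on either strand.
Ephx1: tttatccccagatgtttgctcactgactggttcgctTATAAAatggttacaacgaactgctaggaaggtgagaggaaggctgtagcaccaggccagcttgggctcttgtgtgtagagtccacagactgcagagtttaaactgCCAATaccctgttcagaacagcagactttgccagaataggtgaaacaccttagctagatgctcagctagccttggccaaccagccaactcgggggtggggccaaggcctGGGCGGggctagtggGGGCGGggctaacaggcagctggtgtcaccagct
Vopp1: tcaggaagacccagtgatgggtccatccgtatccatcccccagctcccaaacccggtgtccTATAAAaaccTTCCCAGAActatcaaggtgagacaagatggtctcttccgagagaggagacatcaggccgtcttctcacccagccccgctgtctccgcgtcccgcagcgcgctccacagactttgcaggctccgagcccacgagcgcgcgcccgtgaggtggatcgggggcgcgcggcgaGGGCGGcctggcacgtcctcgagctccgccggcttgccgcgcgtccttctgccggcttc
Rprml: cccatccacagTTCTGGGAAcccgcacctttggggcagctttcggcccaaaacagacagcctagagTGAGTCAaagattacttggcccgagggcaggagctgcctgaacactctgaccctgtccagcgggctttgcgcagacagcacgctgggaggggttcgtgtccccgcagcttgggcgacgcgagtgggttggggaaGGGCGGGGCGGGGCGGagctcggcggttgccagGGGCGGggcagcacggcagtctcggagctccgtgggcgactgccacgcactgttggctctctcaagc
The motifs searched on both strands were CACGTG (E-box), TGACGTCA (cAMP response element), TGANTCA (AP-1), TGACNNNGC (antioxidant response element core), GGGCGG (GC box), CCAAT (the NF-Y site), TATAAA (the core promoter box) and TTCNNNGAA (STAT). The GC box was in 5 of 6 windows, all but that of Cmbl, and in 35.7% of all 32851 windows; 3 of the 4 matches in Rprml overlap each other. TTCNNNGAA was in 2 of 6, those of Vopp1 and Rprml, against 8.30% of all windows, and TATAAA in 2 of 6, Ephx1 and Vopp1, against 13.6%. TGANTCA was in 1 of 6 (Rprml; 7.81% of all) and CCAAT in 1 of 6 (Ephx1; 37.4% of all). CACGTG (7.15% of all), TGACGTCA (1.79%) and TGACNNNGC (12.4%) were in none of the 6. The GC content was 54.3% in Ephx1, 69.0% in Fbxo2, 71.3% in Ppp1r14a, 58.3% in Cmbl, 65.3% in Vopp1 and 66.3% in Rprml. Over all windows the median was 52.7% and the upper quartile 61.7%. The part of GC content in the count of GC boxes was not tested. The RefSeq start of Ephx1 lies inside the span that the deposited table gives the gene.

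The stated choice of the genes compares both groups of subcutaneous tumours only, and the question put to the 3 metastases was whether each gene stood where the N134-RHAMMB tumours had it. All 6 higher genes stayed above N134 tumours, and the lower pair stayed below them. For Ppp1r14a, Vopp1 and Rprml all 3 metastases stood between the tumour groups. Against N134 tumours, limma called 7 of the 8 genes, 6 higher and 1 lower (Rprml), at adjusted p below 0.05. Over all 12854 genes tested it called 9.93%, 5.69% higher and 4.23% lower. The 3 values of metastases lay apart from those of N134 tumours in 8 of 8 genes, against 25.7% of all genes. The N134 tumours also served to choose the genes, so this comparison is not independent of the choice. Against N134-RHAMMB tumours, limma called 1 of the 8 genes, Vopp1, which was higher in metastases; 6 of the 8 had an unadjusted p under 0.05. The N134-RHAMMB tumours served to choose the genes as well, and genes chosen for extreme values in 1 group tend to look less extreme in another, so this comparison is not independent of the choice either. Over all genes it called 6.56%, 5.04% higher and 1.52% lower. The groups lay apart in 5 of the 8 genes, against 19.8% of all genes. The median difference over all genes tested was -0.06 for metastases against N134-RHAMMB tumours, -0.03 for metastases against N134 tumours and 0.01 for N134-RHAMMB against N134 tumours. Both comparisons of metastases use the same 3 metastases.

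**Figure D2:**
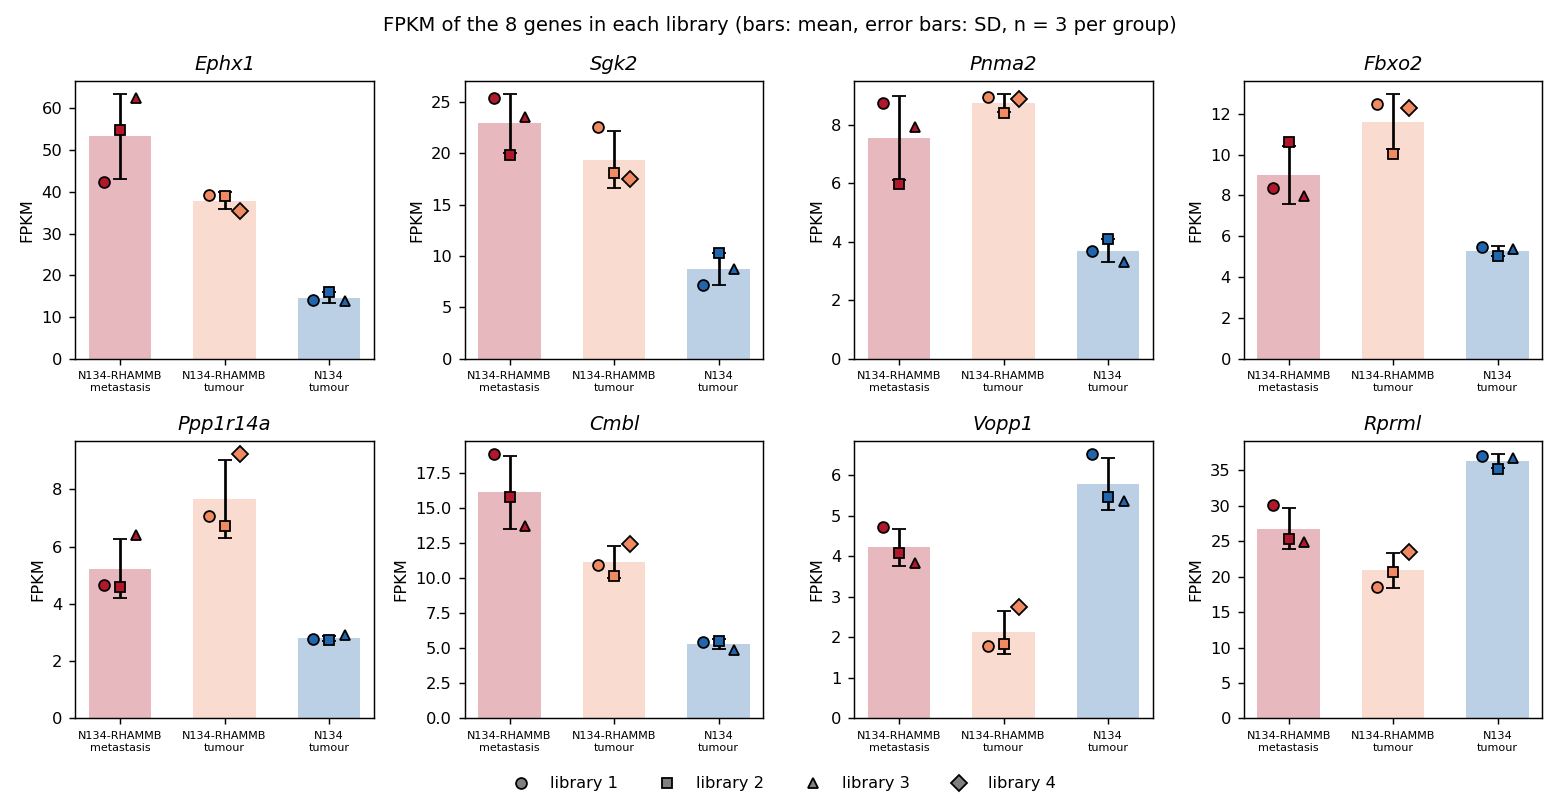
FPKM of the 8 genes by group (points: libraries, with the number given by the symbol; bars: mean; error bars: SD, n = 3). The first 6 genes are higher in metastases and in N134-RHAMMB tumours than in every N134 tumour, and Vopp1 and Rprml are lower. Ppp1r14a, Vopp1 and Rprml in metastases lie between the tumour groups.

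In the comparison that chose the genes, the 8 differences between N134-RHAMMB and N134 tumours ran from -1.13 (Vopp1) to 1.32 (Ephx1) and are given without a test. No overlap was a mild condition, since 25.3% of all genes met it, while limma called 0.194%, 25 genes, of which 8 are the genes described and 17 are others. The smallest gap between the groups was 0.57 log2 units, for Rprml. Of the other called genes, those with the nearest smaller differences were Mrpl34, a mitochondrial ribosomal protein (0.63), and Gmnn, geminin (-0.57); Cmbl (0.95) and Rprml (-0.78) had the smallest differences among the 8. Of the called genes not among the 8, Sult4a1 (0.96) and Plk5 (1.21) had differences within the range of the 6 higher genes. Ero1lb (-0.83), 4933403O08Rik (-1.04), Dcn (-1.07) and Pde1a (-1.11) had differences between those of the lower pair. The count of 25 was 0 without any 1 of the N134 tumours, with 1091 to 1322 genes at an unadjusted p under 0.05. Leaving out N134-RHAMMB tumour 1 gave 8, leaving out tumour 2 or 4 gave 2 each, and leaving out metastasis 2 gave 193. Of the 25, 10 were higher and 15 lower, and with scaling on neuroendocrine genes 6 of 34 were higher and 28 lower.

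Ephx1 (ENSMUSG00000038776, GRCm38 chromosome 1, 180976210 to 181020904, minus strand, 9 exons in its longest transcript) was the most abundant of the 8 in metastases. Its level was 42.5, 54.9 and 62.5 FPKM in metastases 1, 2 and 3, 39.3, 38.9 and 35.5 FPKM in N134-RHAMMB tumours 1, 2 and 4, with 14.0, 16.1 and 13.8 FPKM in N134 tumours 1, 2 and 3. Every metastasis was above every N134-RHAMMB tumour, and these were above every N134 tumour. Metastases averaged 53.3 ± 10.1 FPKM and N134 tumours 14.6 ± 1.26 FPKM (SD, n = 3 each). Ephx1 rose by 1.78 (SE 0.14, limma adjusted p = 8.82e-06). Against the N134-RHAMMB tumours, at 37.9 ± 2.103 FPKM (SD, n = 3), the difference was 0.46 (95% interval 0.15 to 0.78, limma adjusted p = 0.0991). Without metastasis 1 it was 0.62 and passed (limma adjusted p = 0.0154), the 1 of 22 alternatives in which it did. Hepatocytes make Ephx1, and the hepatocyte markers given above moved with this difference; their part in it was not tested. In N134-RHAMMB tumours Ephx1 stood at 35.5 FPKM or more while Alb was at 0.720 FPKM or less. The annotation puts the unprocessed pseudogene Gm36961 within the gene on the same strand, so its reads cannot be told apart from those of Ephx1 if the sequences are alike.

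Among the other epoxide hydrolases, Ephx2, the soluble form, averaged 11.9 ± 2.40 FPKM in metastases, 0.299 ± 0.217 FPKM in N134-RHAMMB tumours and 0.559 ± 0.162 FPKM in N134 tumours (SD, n = 3). It rose in metastases, by 3.31 against N134-RHAMMB tumours (limma adjusted p = 6.77e-07) and by 3.04 against N134 tumours (limma adjusted p = 1.37e-06). Ephx4 averaged 4.87 FPKM in metastases, 6.87 FPKM in N134-RHAMMB tumours and 4.23 FPKM in N134 tumours. Lta4h, an aminopeptidase with epoxide hydrolase activity, averaged 14.7 FPKM in metastases, 14.9 FPKM in N134-RHAMMB tumours and 17.2 FPKM in N134 tumours. Ephx3 lay under the filter. Of 26 tested genes of the NRF2 and xenobiotic response, 9 rose and 0 fell in metastases against N134-RHAMMB tumours, with a median of 0.22. Against N134 tumours 10 rose and 3 fell (Nqo1, Hmox1 and Akr1b8), with a median of 0.33. Over all genes tested, 5.04% rose and 1.52% fell against N134-RHAMMB tumours, and 5.69% rose and 4.23% fell against N134 tumours. Hepatocyte markers rose in metastases too, and their part in the rises of Ephx2 and of this list was not tested. In N134-RHAMMB against N134 tumours limma called 0 of the 26, with 8 at an unadjusted p under 0.05 and a median of -0.05. Txnrd1, thioredoxin reductase, was the most abundant, at 1611 FPKM in metastases, 1643 FPKM in N134-RHAMMB tumours and 1490 FPKM in N134 tumours. Gstm1, a glutathione transferase with near-identical relatives that make its value uncertain, averaged 601 FPKM in metastases, 61.7 FPKM in N134-RHAMMB tumours and 41.6 FPKM in N134 tumours. Nqo1, a quinone reductase that NRF2 induces, averaged 50.2 FPKM in metastases, 56.7 FPKM in N134-RHAMMB tumours and 82.0 FPKM in N134 tumours and fell by 0.71 in metastases against N134 tumours (limma adjusted p = 0.00976).

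Cmbl (ENSMUSG00000022235, chromosome 15, 31568791 to 31590119, plus strand, 6 exons) followed a like course at a lower level. Its level was 18.9, 15.8 and 13.7 FPKM in metastases, at 10.9, 10.2 and 12.4 FPKM in N134-RHAMMB tumours, while N134 tumours had 5.47, 5.56 and 4.87 FPKM. No 2 groups overlapped. The means were 16.1 ± 2.60 FPKM in metastases, 11.2 ± 1.14 FPKM in N134-RHAMMB tumours and 5.30 ± 0.372 FPKM in N134 tumours (SD, n = 3 each). Cmbl rose by 1.44 in metastases against N134 tumours (SE 0.15, limma adjusted p = 7.27e-05). Against N134-RHAMMB tumours the difference was 0.48 (95% interval 0.16 to 0.81, limma adjusted p = 0.0947). It passed in 3 of 22 alternatives. These were median-of-ratios scaling (0.53, limma adjusted p = 0.0416), scaling on neuroendocrine genes (0.61, adjusted p = 0.0379) and library weights (0.56, adjusted p = 0.0130). Hepatocyte markers moved with this difference too, and their part in it was not tested. Of 17 tested ester hydrolases, 9 rose in metastases against N134-RHAMMB tumours and 10 against N134 tumours, 0 fell in either, and the medians were 1.16 and 1.10. Over all genes tested, 5.04% rose against N134-RHAMMB tumours and 5.69% against N134 tumours. The part of hepatocytes in the ester hydrolase values was not tested. The rises were not spread over the whole list. The genes that rose include carboxylesterases, paralogs so alike that a value of any 1 of them is uncertain, and Pon1, a paraoxonase that the liver secretes. In N134-RHAMMB against N134 tumours limma called 0 of the 17, with 3 at an unadjusted p under 0.05 and a median of 0. The 3 with the highest mean over all 9 libraries, Esd, Lypla1 and Lypla2, did not pass, while in metastases the called carboxylesterase gene Ces1c averaged 85.0 FPKM, above Lypla1 and Lypla2. Esd, esterase D, averaged 112 FPKM in metastases, 123 FPKM in N134-RHAMMB tumours and 111 FPKM in N134 tumours, Lypla1 39.4 FPKM in metastases, 36.1 FPKM in N134-RHAMMB tumours and 29.6 FPKM in N134 tumours, and Lypla2 35.4 FPKM in metastases, 30.0 FPKM in N134-RHAMMB tumours and 37.6 FPKM in N134 tumours.

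Sgk2 (ENSMUSG00000017868, chromosome 2, 162987330 to 163014127, plus strand, 13 exons) stood at 25.4, 19.8 and 23.5 FPKM in metastases, at 22.6, 18.1 and 17.5 FPKM in N134-RHAMMB tumours, while N134 tumours had 7.20, 10.3 and 8.74 FPKM. Metastases and N134-RHAMMB tumours overlapped, and both lay above all N134 tumours. The means were 22.9 ± 2.84 FPKM in metastases, 19.4 ± 2.79 FPKM in N134-RHAMMB tumours and 8.75 ± 1.56 FPKM in N134 tumours (SD, n = 3 each). Sgk2 rose by 1.30 in metastases against N134 tumours (SE 0.16, limma adjusted p = 3.21e-04). The difference from N134-RHAMMB tumours was 0.23, with a 95% interval of -0.13 to 0.59 (limma adjusted p = 0.556). The part of liver RNA in the metastasis values of Sgk2 was not tested. Sgk1, the stress-induced member, averaged 9.36 ± 1.69 FPKM in metastases, 7.999 ± 0.838 FPKM in N134-RHAMMB tumours and 14.7 ± 3.58 FPKM in N134 tumours (SD, n = 3). Its differences were -0.59 for metastases against N134 tumours (limma adjusted p = 0.0912) and -0.78 for N134-RHAMMB against N134 tumours (limma adjusted p = 0.152). Sgk3 averaged 6.38 FPKM in metastases, 4.17 FPKM in N134-RHAMMB tumours and 6.06 FPKM in N134 tumours. Akt1, a related kinase, averaged 48.3 FPKM in metastases, 53.6 FPKM in N134-RHAMMB tumours and 60.3 FPKM in N134 tumours, and Akt2 averaged 39.4 FPKM in metastases, 35.6 FPKM in N134-RHAMMB tumours and 40.6 FPKM in N134 tumours. None of these 4 kinases passed in any comparison.

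Of 15 tested genes of SGK activation and its targets, 1 rose in metastases against N134-RHAMMB tumours (Ndrg2). Against N134 tumours 2 rose (Ndrg2 and Scnn1b, a subunit of the epithelial sodium channel). Over all genes tested, 5.04% rose against N134-RHAMMB tumours and 5.69% against N134 tumours. Limma called 0 of the 15 in N134-RHAMMB against N134 tumours, with 2 at an unadjusted p under 0.05. Ndrg2 averaged 24.9 FPKM in metastases, 2.21 FPKM in N134-RHAMMB tumours and 1.49 FPKM in N134 tumours. Hepatocyte markers rose in metastases as well, and their part in the level of Ndrg2 was not tested. Scnn1b averaged 1.75 FPKM in metastases, 0.985 FPKM in N134-RHAMMB tumours and 0.610 FPKM in N134 tumours. Nedd4, a ubiquitin ligase and the most abundant of the list, averaged 116 FPKM in metastases, 130.1 FPKM in N134-RHAMMB tumours and 118 FPKM in N134 tumours. The SGK substrate Ndrg1 averaged 52.7 FPKM in metastases, 64.4 FPKM in N134-RHAMMB tumours and 45.6 FPKM in N134 tumours and the kinase Gsk3b 23.8 FPKM in metastases, 24.2 FPKM in N134-RHAMMB tumours and 25.05 FPKM in N134 tumours. None of these 3 passed in any comparison.

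Pnma2 (ENSMUSG00000046204, chromosome 14, 66911170 to 66920054, plus strand, 3 exons) stood at 8.75, 5.97 and 7.90 FPKM in metastases, at 8.95, 8.40 and 8.87 FPKM in N134-RHAMMB tumours, while N134 tumours had 3.67, 4.10 and 3.31 FPKM. Metastasis 1 lay within the range of N134-RHAMMB tumours, and metastases 2 and 3 lay below it and above all N134 tumours. The means were 7.54 ± 1.43 FPKM in metastases, 8.74 ± 0.30 FPKM in N134-RHAMMB tumours and 3.69 ± 0.392 FPKM in N134 tumours (SD, n = 3 each). Pnma2 rose by 0.85 in metastases against N134 tumours (SE 0.16, limma adjusted p = 0.00530). Against N134-RHAMMB tumours the difference was -0.20, with a 95% interval of -0.55 to 0.14 (limma adjusted p = 0.607). The part of liver RNA in the metastasis values of Pnma2 was not tested. Of 8 relatives, 6 were tested and none passed in any comparison. Pnma5 spread widely between metastases, at 4.52 ± 3.90 FPKM in metastases, 10.9 ± 1.12 FPKM in N134-RHAMMB tumours and 5.66 ± 1.33 FPKM in N134 tumours (SD, n = 3). Zcchc18 averaged 33.2 FPKM in metastases, 43.0 FPKM in N134-RHAMMB tumours and 46.4 FPKM in N134 tumours. Pnmal1 averaged 58.0 FPKM in metastases, 70.0 FPKM in N134-RHAMMB tumours and 66.2 FPKM in N134 tumours and Pnmal2 22.0 FPKM in metastases, 18.2 FPKM in N134-RHAMMB tumours and 17.3 FPKM in N134 tumours. Pnma1, the first of the family, averaged 1.86 FPKM in metastases, 3.02 FPKM in N134-RHAMMB tumours and 2.44 FPKM in N134 tumours. Moap1, which binds the apoptosis factor BAX, averaged 3.59 FPKM in metastases, 4.45 FPKM in N134-RHAMMB tumours and 4.93 FPKM in N134 tumours. Pnma3 and Zcchc12 lay under the filter.

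Fbxo2 (ENSMUSG00000041556, chromosome 4, 148160621 to 148166424, plus strand, 6 exons, 1 transcript in the table) stood at 8.37, 10.6 and 7.99 FPKM in metastases, at 12.5, 10.1 and 12.3 FPKM in N134-RHAMMB tumours, while N134 tumours had 5.46, 5.02 and 5.39 FPKM. Metastasis 2 lay within the range of N134-RHAMMB tumours and the other 2 lay below it, all above every N134 tumour. The means were 8.99 ± 1.41 FPKM in metastases, 11.6 ± 1.35 FPKM in N134-RHAMMB tumours and 5.29 ± 0.237 FPKM in N134 tumours (SD, n = 3 each). Fbxo2 rose by 0.66 in metastases against N134 tumours (SE 0.15, limma adjusted p = 0.0171). That call was lost without N134 tumour 1, 2 or 3 (limma adjusted p = 0.0501 to 0.0706). The difference from N134-RHAMMB tumours was -0.34, with a 95% interval of -0.67 to -0.01 (limma adjusted p = 0.280). The part of liver RNA in the metastasis values of Fbxo2 was not tested. Fbxo6 and Fbxo44, relatives that lie just upstream in the same cluster, did not pass. Fbxo6 averaged 14.2 ± 1.75 FPKM in metastases, 13.9 ± 2.74 FPKM in N134-RHAMMB tumours and 14.2 ± 1.89 FPKM in N134 tumours (SD, n = 3). Fbxo44 averaged 15.1 ± 4.02 FPKM in metastases, 17.7 ± 1.19 FPKM in N134-RHAMMB tumours and 16.3 ± 1.25 FPKM in N134 tumours (SD, n = 3). Fbxo27 averaged 2.07 FPKM in metastases, 2.68 FPKM in N134-RHAMMB tumours and 1.83 FPKM in N134 tumours and Fbxo17 2.25 FPKM in metastases, 2.32 FPKM in N134-RHAMMB tumours and 1.65 FPKM in N134 tumours. None of the 4 passed.

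In the list of ubiquitin ligase subunits and glycoprotein degradation, limma called 0 of 20 tested genes in each of the 3 comparisons. With an unadjusted p under 0.05 there were 2 for metastases against N134-RHAMMB tumours, 3 for metastases against N134 tumours and 1 for N134-RHAMMB against N134 tumours. The medians were all 0.02 to 0.03. Skp1a, the adaptor that Fbxo2 binds, averaged 118 ± 8.44 FPKM in metastases, 136 ± 12.5 FPKM in N134-RHAMMB tumours and 125 ± 6.47 FPKM in N134 tumours (SD, n = 3). Nedd8, the modifier that activates the ligase, averaged 154 FPKM in metastases, 169 FPKM in N134-RHAMMB tumours and 149.6 FPKM in N134 tumours. Herpud1, an endoplasmic reticulum stress gene, averaged 112 FPKM in metastases, 101 FPKM in N134-RHAMMB tumours and 97.6 FPKM in N134 tumours.

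Ppp1r14a (ENSMUSG00000037166, chromosome 7, 29289308 to 29293801, plus strand, 4 exons) stood at 4.67, 4.61 and 6.42 FPKM in metastases, at 7.06, 6.71 and 9.25 FPKM in N134-RHAMMB tumours, while N134 tumours had 2.77, 2.72 and 2.90 FPKM. All 3 metastases lay between the tumour groups, and no groups overlapped. The means were 5.23 ± 1.03 FPKM in metastases, 7.67 ± 1.37 FPKM in N134-RHAMMB tumours and 2.80 ± 0.0905 FPKM in N134 tumours (SD, n = 3 each). Ppp1r14a rose by 0.70 in metastases against N134 tumours (SE 0.17, limma adjusted p = 0.0247). That call was lost without N134 tumour 1, 2 or 3 or metastasis 3 (limma adjusted p = 0.0681 to 0.0853). Against N134-RHAMMB tumours the difference was -0.48, with a 95% interval of -0.85 to -0.10 (limma adjusted p = 0.164). None of the 8 smooth muscle and pericyte markers was at 0 in any library, with sums of 102 to 197 FPKM in metastases, 93.4 to 170 FPKM in N134-RHAMMB tumours and 162 to 225 FPKM in N134 tumours. N134-RHAMMB tumour 1 had 7.06 FPKM of Ppp1r14a, above all N134 tumours. In that tumour the skeletal muscle creatine kinase Ckm was listed at 0, and the smooth muscle and pericyte markers summed to 102 FPKM. The part of muscle cells and pericytes in the level of Ppp1r14a was not tested. Ppp1r14b, the ubiquitous relative, averaged 50.8 ± 14.1 FPKM in metastases, 61.8 ± 3.15 FPKM in N134-RHAMMB tumours and 55.5 ± 7.83 FPKM in N134 tumours (SD, n = 3), and did not pass. Ppp1r14c and Ppp1r14d lay under the filter.

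Of 25 tested genes of myosin phosphatase and contractility, limma called 0 in each comparison. With an unadjusted p under 0.05 there were 2 for metastases against N134-RHAMMB tumours, 2 for metastases against N134 tumours and 3 for N134-RHAMMB against N134 tumours. The medians were -0.06 for metastases against N134-RHAMMB tumours, -0.02 for metastases against N134 tumours and 0.07 for N134-RHAMMB against N134 tumours. The catalytic subunit gene Ppp1ca averaged 209 FPKM in metastases, 245 FPKM in N134-RHAMMB tumours and 226 FPKM in N134 tumours, and Ppp1cc 176 FPKM in metastases, 193 FPKM in N134-RHAMMB tumours and 163 FPKM in N134 tumours. Myl6, a myosin light chain, averaged 347 FPKM in metastases, 388 FPKM in N134-RHAMMB tumours and 357 FPKM in N134 tumours.

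Vopp1 (ENSMUSG00000037788, chromosome 6, 57727807 to 57825159, minus strand, 4 exons in its longest transcript) stood at 4.73, 4.09 and 3.83 FPKM in metastases, at 1.79, 1.82 and 2.74 FPKM in N134-RHAMMB tumours, while N134 tumours had 6.53, 5.47 and 5.36 FPKM. All 3 metastases lay between the tumour groups without overlap. The means were 4.22 ± 0.462 FPKM in metastases, 2.12 ± 0.539 FPKM in N134-RHAMMB tumours and 5.78 ± 0.647 FPKM in N134 tumours (SD, n = 3 each). Vopp1 rose by 0.75 in metastases against N134-RHAMMB tumours (SE 0.17, limma adjusted p = 0.0205). Against N134 tumours the difference was -0.38, with a 95% interval of -0.75 to -0.01 (limma adjusted p = 0.222). The call against N134-RHAMMB tumours was lost without N134-RHAMMB tumour 1 or 2 or metastasis 1 (limma adjusted p = 0.0773 to 0.108), without N134-RHAMMB tumours 2 and 4 together (adjusted p = 0.0886) and with only the 2 groups (adjusted p = 0.0681). Lancl2 overlaps Vopp1 on the opposite strand, and the strand setting is not given, so reads of the pair cannot be told apart where they overlap. Lancl2 stood at 22.5, 22.2 and 23.5 FPKM in metastases, at 28.7, 26.6 and 24.97 FPKM in N134-RHAMMB tumours, while N134 tumours had 29.2, 25.1 and 26.8 FPKM. The part of the overlap in the values of Vopp1 was not tested.

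Rprml (ENSMUSG00000046215, chromosome 11, 103649570 to 103650579, plus strand), a gene of 1 exon, was the most abundant of the 8 in N134 tumours. Its level was 30.1, 25.3 and 24.97 FPKM in metastases, at 18.6, 20.6 and 23.4 FPKM in N134-RHAMMB tumours, while N134 tumours had 37.1, 35.2 and 36.7 FPKM. The metastases again lay between the tumour groups, with metastasis 3 at 24.97 FPKM near N134-RHAMMB tumour 4 at 23.4 FPKM. The means were 26.8 ± 2.85 FPKM in metastases, 20.9 ± 2.43 FPKM in N134-RHAMMB tumours and 36.4 ± 0.990 FPKM in N134 tumours (SD, n = 3 each). Rprml fell by 0.43 in metastases against N134 tumours (SE 0.12, limma adjusted p = 0.0465). This call held in 7 of 22 alternatives, whose adjusted p ran from 0.0306 to 0.215. Leaving out any 1 N134 tumour ended it, as did leaving out metastasis 2 or 3, or N134-RHAMMB tumour 1 or 2 (limma adjusted p = 0.0580 to 0.142). Compared with N134-RHAMMB tumours the difference was 0.35, with a 95% interval of 0.08 to 0.61 (limma adjusted p = 0.149). Fibroblast markers, summed, were at 190 to 403 FPKM in metastases, 290 to 500 FPKM in N134-RHAMMB tumours and 625 to 883 FPKM in N134 tumours. Macrophage markers were at 215 to 365 FPKM in metastases, 338 to 453 FPKM in N134-RHAMMB tumours and 466 to 795 FPKM in N134 tumours. Both ranges overlapped between metastases and N134-RHAMMB tumours. Of 9 tested fibroblast markers, 1 rose and 2 fell in metastases against N134-RHAMMB tumours, with a median of -0.41. Against N134 tumours 0 rose and 6 fell in metastases. For N134-RHAMMB against N134 tumours 0 rose and 2 fell, with 7 at an unadjusted p under 0.05 and a median of -1.002. Of 9 tested macrophage markers limma called 0 in this last comparison, with 8 at an unadjusted p under 0.05 and a median of -0.696. Limma called 0.194% of all genes tested there, 6.56% for metastases against N134-RHAMMB tumours and 9.93% against N134 tumours. The collagen gene Col3a1 made up most of the fibroblast sum. Dcn, the matrix proteoglycan decorin, averaged 30.3 FPKM in metastases, 12.3 FPKM in N134-RHAMMB tumours and 26.8 FPKM in N134 tumours. Its difference of 1.23 between metastases and N134-RHAMMB tumours went against the median of the fibroblast list. The part of these cells in the levels of Vopp1 and Rprml was not tested. Hmmr, the mouse gene for RHAMM, stood at 36.0 to 43.3 FPKM in metastases, 49.2 to 51.3 FPKM in N134-RHAMMB tumours and 39.2 to 44.9 FPKM in N134 tumours; the species of the RHAMMB construct is not stated, so these values do not check the labels.

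Wbp1 and Wbp1l, relatives of Vopp1 that bind WW domains, did not pass: Wbp1 averaged 67.6 FPKM in metastases, 52.9 FPKM in N134-RHAMMB tumours and 69.2 FPKM in N134 tumours and Wbp1l 10.8 FPKM in metastases, 8.23 FPKM in N134-RHAMMB tumours and 7.74 FPKM in N134 tumours. Rprm, reprimo itself, lay under the filter at means of 0.163 FPKM in metastases, 0.114 FPKM in N134-RHAMMB tumours and 0.171 FPKM in N134 tumours. In the list of WWOX and NF-kappaB genes, limma called 0 of 13 in each comparison, with 1, 2 and 2 at an unadjusted p under 0.05 for metastases against N134-RHAMMB tumours, metastases against N134 tumours and N134-RHAMMB against N134 tumours. The kinase gene Chuk averaged 40.03 FPKM in metastases, 42.8 FPKM in N134-RHAMMB tumours and 38.0 FPKM in N134 tumours, and Ikbkb 25.8 FPKM in metastases, 22.4 FPKM in N134-RHAMMB tumours and 17.3 FPKM in N134 tumours. Their regulatory subunit Ikbkg averaged 28.4 FPKM in metastases, 23.3 FPKM in N134-RHAMMB tumours and 23.3 FPKM in N134 tumours. Of 19 tested p53 targets and G2 genes, 1 fell in metastases against N134-RHAMMB tumours (Cdc25c, by 0.68). Against N134 tumours 2 fell (Cdc25c, by 0.65, and Cdk1, by 0.54), the phosphatase and the kinase that start mitosis. Over all genes tested, 1.52% fell against N134-RHAMMB tumours and 4.23% against N134 tumours. The part of liver RNA in these falls was not tested. Cdk1 averaged 133.6 ± 8.16 FPKM in metastases, 172 ± 15.7 FPKM in N134-RHAMMB tumours and 195 ± 21.4 FPKM in N134 tumours (SD, n = 3). Limma called 0 of the 19 in N134-RHAMMB against N134 tumours, with 1 at an unadjusted p under 0.05. Ccnb1, the cyclin partner of Cdk1, averaged 54.7 FPKM in metastases, 73.2 FPKM in N134-RHAMMB tumours and 70.9 FPKM in N134 tumours. Bax, an apoptosis effector, averaged 160.5 FPKM in metastases, 153 FPKM in N134-RHAMMB tumours and 149.9 FPKM in N134 tumours.

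**Figure D3:**
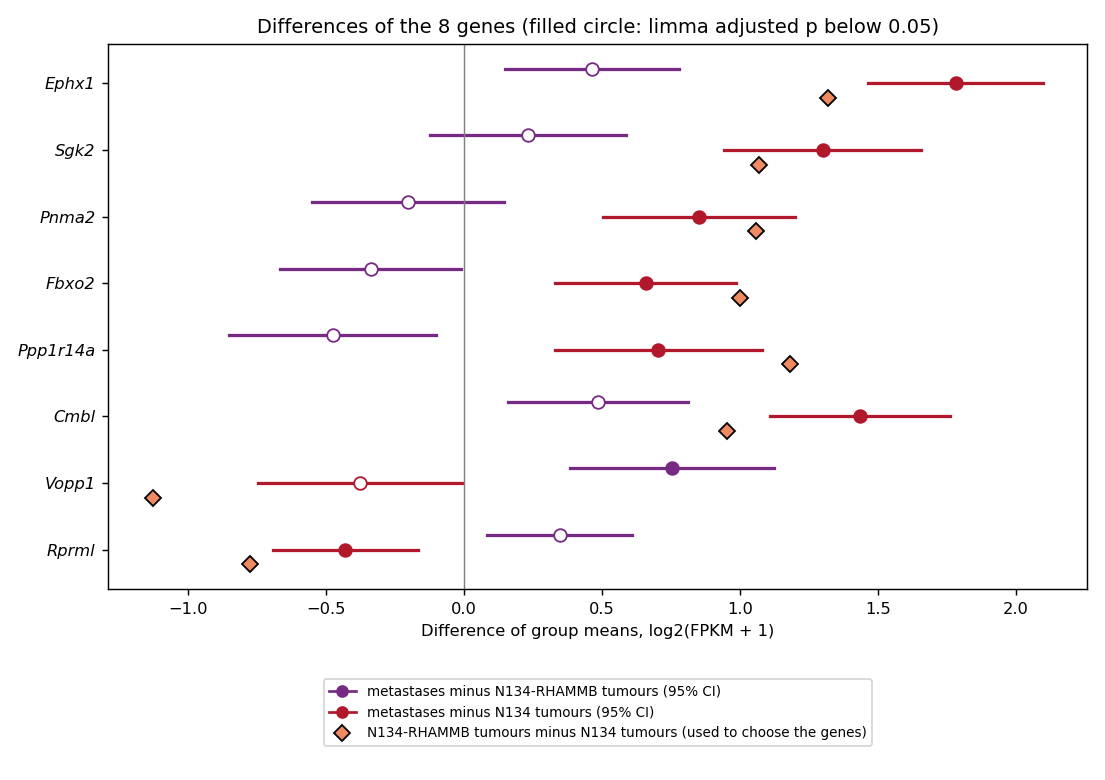
Differences of group means on the log2(FPKM + 1) scale for each gene (lines: 95% interval; filled circles: adjusted p below 0.05; diamonds: the comparison that chose the genes, shown without an interval). Metastases are above N134 tumours in the first 6 genes, from 0.66 (Fbxo2) to 1.78 (Ephx1), and Vopp1 has the one filled circle against N134-RHAMMB tumours, at 0.75.

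The difference between metastases and N134 tumours was taken as a percentage of that between N134-RHAMMB and N134 tumours, which put the genes in an order. The metastasis values are bulk values that include liver RNA, and its part in this order was not tested. The value was 151% for Cmbl, 135% for Ephx1 and 122% for Sgk2. It was 80.7% for Pnma2, 66.0% for Fbxo2 and 59.5% for Ppp1r14a. It was 55.5% for Rprml and 33.5% for Vopp1. The spread over the 3 metastases was wide: 54.3% to 100% for Pnma2, 51.7% to 88.6% for Fbxo2, 47.6% to 82.0% for Ppp1r14a, 34.1% to 67.5% for Rprml and 21.2% to 43.0% for Vopp1. For Cmbl, Ephx1 and Sgk2 it was 129% to 175%, 112% to 154% and 104% to 136%. Neighbours in this order overlapped in every case but that between Sgk2 and Pnma2. Of the 24 values of single metastases, 8 were above both tumour groups, 13 between them and 3 within the range of N134-RHAMMB tumours, and none was within the range of N134 tumours. These percentages describe the values, since both tumour groups had served to choose the genes. In the closest gene pair by profile, Vopp1 and Rprml, the centred log2 profiles over 9 libraries differed by a root mean square of 0.20 log2 units; Pnma2 and Ppp1r14a followed at 0.21.

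**Figure D4:**
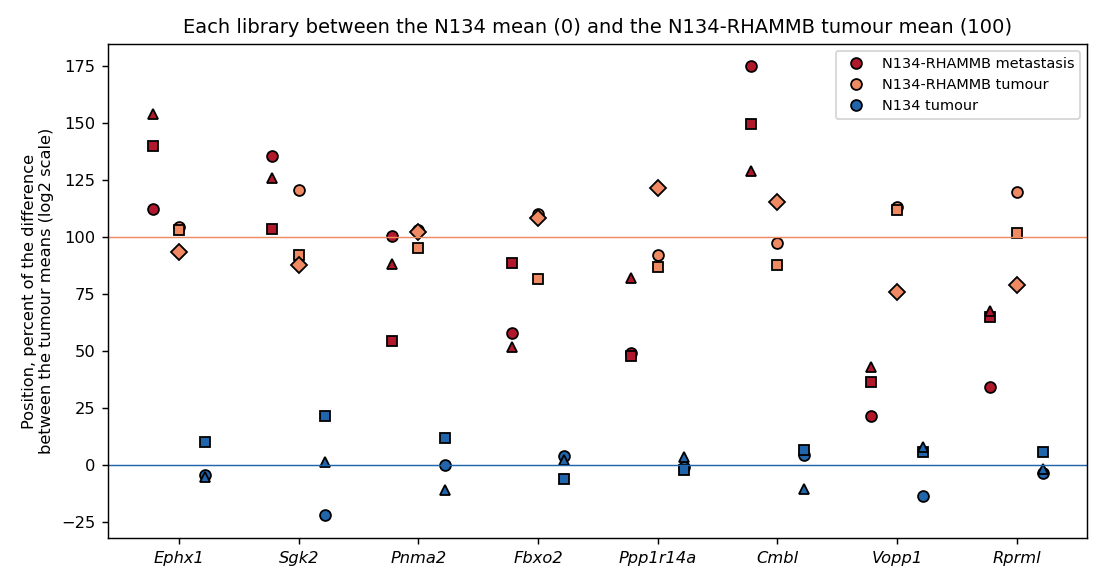
Position of each library between the mean of N134 tumours (0) and of N134-RHAMMB tumours (100), as a percentage on the log2 scale (circle, square, triangle and diamond: libraries 1, 2, 3 and 4). Metastases lie at 104% or more for Ephx1, Sgk2 and Cmbl and at 67.5% or less for Vopp1 and Rprml.

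The chromosomal surroundings of the 8 genes were read from the 2 nearest tested genes on each side. Limma called 0 of these 32 neighbours in N134-RHAMMB against N134 tumours, with 3 at an unadjusted p under 0.05. Their differences ran from -0.83 to 0.41 with a median of 0.17, against a median of 0.01 over all genes. In metastases limma called 6.56% of all genes tested against N134-RHAMMB tumours and 9.93% against N134 tumours. Of the 32 neighbours 1 passed against N134-RHAMMB tumours, 2200002D01Rik near Ppp1r14a (1.33, limma adjusted p = 0.0121). Against N134 tumours 2 passed. They were Spint2, a protease inhibitor beside Ppp1r14a (0.95, limma adjusted p = 0.0186), and Abcg2, an efflux transporter 857 kb beyond Vopp1 (0.89, limma adjusted p = 0.0146). No neighbour of the other 6 genes passed in any comparison. The 8 genes lie on 8 different chromosomes.

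**Figure D5:**
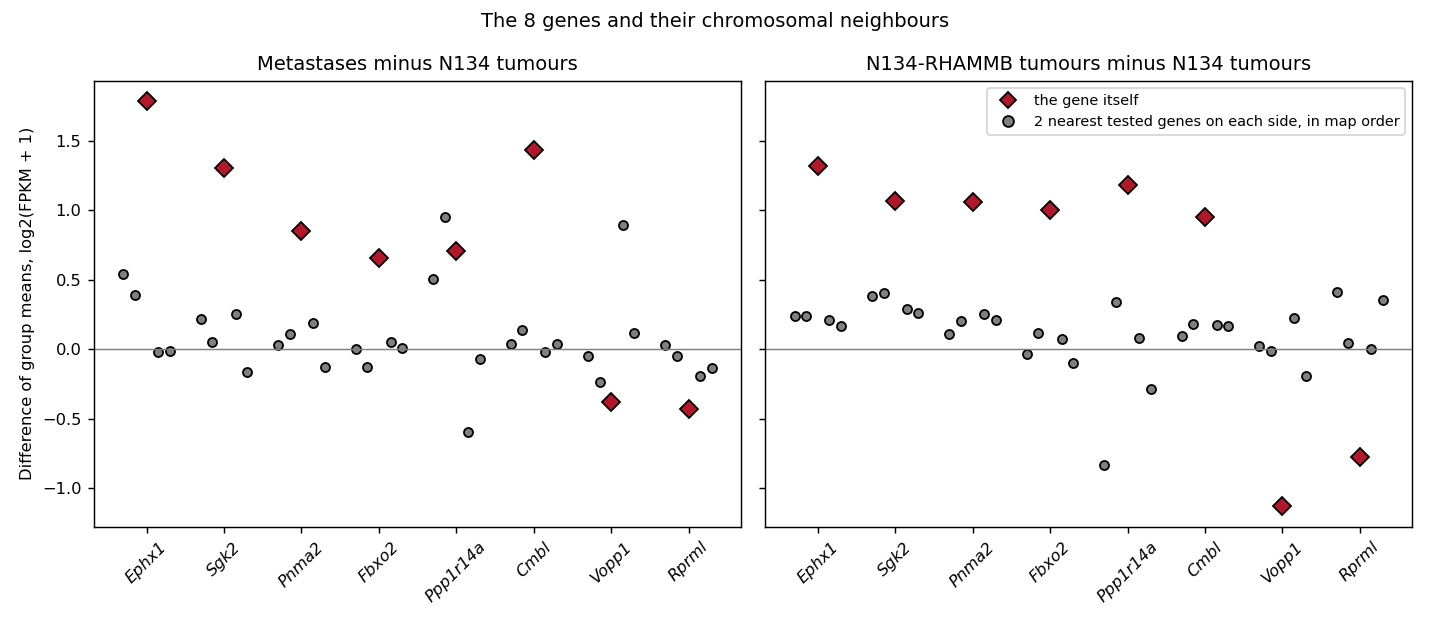
Differences of the 8 genes (diamonds) and of the 2 nearest tested genes on each side (circles, in map order) on the log2(FPKM + 1) scale. In N134-RHAMMB against N134 tumours the neighbours lie between -0.83 and 0.41, while the 8 genes lie between -1.13 and -0.78 or between 0.95 and 1.32.

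For each gene the 3 tested genes with the nearest centred log2 profile over the 9 libraries were looked up, with the root mean square difference as the measure. The libraries are the same ones that chose the 8 genes, so the likeness is a description. Sult4a1, a brain sulfotransferase, was nearest to both Fbxo2 (0.12) and Pnma2 (0.17), at 9.21 ± 0.411 FPKM in metastases, 10.4 ± 0.839 FPKM in N134-RHAMMB tumours and 4.89 ± 0.541 FPKM in N134 tumours (SD, n = 3). After it came Lrrc27 and Ankrd10 for Fbxo2 (0.17 and 0.19) and Slc35c1, a GDP-fucose transporter, and Slc5a5, the iodide transporter, for Pnma2 (0.17 and 0.18). Cyp2d22, a cytochrome P450, was nearest to Cmbl (0.15) and also near Sgk2 (0.19), at 7.77 ± 2.39 FPKM in metastases, 5.48 ± 0.994 FPKM in N134-RHAMMB tumours and 2.21 ± 0.169 FPKM in N134 tumours. Cmbl was followed by the channel subunit Kcnip1 (0.20) and the small heat shock protein Hspb8 (0.22). Plk5, a polo-like kinase, was nearest to Sgk2 (0.17), and the keratin Krt18 came after Cyp2d22 (0.19), at 42.9 FPKM in metastases, 27.8 FPKM in N134-RHAMMB tumours and 16.3 FPKM in N134 tumours.

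The profile of Ephx1 had no close match. Its nearest were the low genes Cox7b2 (0.26), the dopamine receptor Drd2 (0.28) and Rhod, a small GTPase (0.32), and Drd2 averaged 2.09 FPKM in metastases, 1.73 FPKM in N134-RHAMMB tumours and 0.186 FPKM in N134 tumours. Ppp1r14a was nearest to Actn3, an alpha-actinin of fast muscle (0.14), at 3.72, 4.19 and 4.91 FPKM in metastases 1, 2 and 3, 6.16, 5.69 and 8.20 FPKM in N134-RHAMMB tumours 1, 2 and 4, with 2.15, 3.28 and 2.32 FPKM in N134 tumours 1, 2 and 3. Actn3 is 1 of the skeletal muscle markers and was high in N134-RHAMMB tumour 1 as well as in tumours 2 and 4. The list as a whole summed to 17.8, 175 and 218 FPKM in the same tumours, with Ckm at 0, 10.2 and 16.0 FPKM. The part of muscle cells in the profiles of Actn3 and Ppp1r14a was not tested. Nol3, an inhibitor of apoptosis, and Alpl, alkaline phosphatase, came next (both 0.20). For Rprml the nearest were Tpra1 and Dusp6, a phosphatase that ERK signalling induces and that inactivates ERK (both 0.13). Dusp6 averaged 11.1 ± 1.40 FPKM in metastases, 9.40 ± 0.997 FPKM in N134-RHAMMB tumours and 15.0 ± 2.11 FPKM in N134 tumours. Shroom3, an actin-binding protein, was nearest to Vopp1 (0.20) and came after these for Rprml (0.14), followed for Vopp1 by the amino acid transporter Slc1a4 (0.21) and Fam234b (0.22).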

How the data were processed

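Total RNA of 9 mouse tumour samples was sequenced. The authors deposited gene-level FPKM with an estimation status beside each value, per the file headers. The submitters' processing notes name GRCm38, Cufflinks 2.1.1, STAR 2.5.2 and bcl2fastq 2.19, without their roles. FPKM divides by length and library size, so a gene's value falls when others take more of the library.

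Of 22053 rows, 7 with a failed estimate and 102 repeating a symbol (the locus with the highest mean was kept) were dropped, leaving 21944 genes. The 12854 genes with at least 1 FPKM in at least 3 libraries entered a limma fit (limma 3.58.1, R 4.3.3). The model had 3 groups over 9 libraries (6 residual degrees of freedom), log2(FPKM + 1), an intensity trend, 2-sided tests and Benjamini-Hochberg adjustment over all genes at 0.05. An exact permutation test of 3 against 3 was not used. Starts have 1 added, which matched GENCODE M21 in 82.3% of 21737 rows. Library depth came from the step that 1 fragment makes in genes with 1 transcript. The fit was tested on simulated data. The list gene Selenos and the muscle marker Acta1 had no row of that symbol.

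The 8 genes and all lists were chosen with earlier results of these data known, and the motifs after the values were seen. Named genes are the 8, the 3 nearest by profile for each, the tested relatives (1 is not reported here), the 3 most abundant of each pathway list and neighbours that passed. List members named because a count was 5 or fewer, Pon1, Ces1c, Dcn, and the other genes named beside the 25 calls were chosen after their values were seen.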

Additional observations from a re-analysis of the deposited data

How the results depend on the processing

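In 22 alternatives none of the differences of the 8 genes between metastases and either tumour group changed sign (175 values for each; Vopp1 lay under the filter at a mean of 5 FPKM). Against N134 tumours, Ephx1, Sgk2, Pnma2 and Cmbl passed in all 22, Fbxo2 and Ppp1r14a in 18 each, Rprml in 7 and Vopp1 in 0. Leaving out 1 library gave 4 to 7 of the 8 against N134 tumours and 0 to 1 against N134-RHAMMB tumours. The count of all genes was then 882 to 1571, 650 to 1137 and, for N134-RHAMMB against N134 tumours, 0 to 193.

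Against N134-RHAMMB tumours the members called were 1 in the reported fit. They were 0 at a mean of 5 FPKM, with only the 2 groups, and without N134-RHAMMB tumours 2 and 4 (5, 5 and 2 at an unadjusted p under 0.05), 2 with median-of-ratios or neuroendocrine gene scaling, and 4 with library weights. The genes called against N134-RHAMMB tumours were 843, and 347 at a mean of 5 FPKM, 1950 with library weights and 504 without those 2 tumours. Against N134 tumours they were 1276, and 594 at a mean of 5 FPKM. Fewer genes were tested there (9504). For N134-RHAMMB against N134 tumours the 25 became 15 at a mean of 5 FPKM, 169 with only the 2 groups, 2629 with library weights and 1 without those 2 tumours. Where fewer samples or genes were not the setting itself, the cause was not tested. With quantile normalization 630 genes were higher and 314 lower in metastases against N134-RHAMMB tumours, against 648 and 195.

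With the replicate number as a block, 1 gene was called for N134-RHAMMB against N134 tumours, and 1 and 5 of the 8 genes for metastases against N134-RHAMMB and N134 tumours, the last without Fbxo2 (adjusted p = 0.0548) and Rprml (adjusted p = 0.0796). Deviations of same-numbered libraries correlated at -0.003 to 0.10. Metastases 1 and 2 correlated best with their own number in both tumour groups. N134-RHAMMB tumours 1 and 2 correlated best with their own number among N134 tumours. Metastasis 3 did not, and the highest value, 0.15, was between N134-RHAMMB tumour 4 and N134 tumour 1. These values do not settle whether the numbers mark pairs, and the reported fit does not pair them. N134-RHAMMB tumour 4 has no partner. FPKM without counts gives no counting error.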
